A study of Mus musculus with 12 samples.

Results

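MicroRNA (miRNA) levels in the mouse liver at weaning, 3 weeks after birth, were set against those in the fetal liver at embryonic day 15.5 (e15.5). The comparison took all livers of both ages, 6 of the 12 livers in the series, and all 355 mouse probes of the table. The 3-week group held 3 male C57Bl/6 livers, and the e15.5 group held 3 C57Bl/6 liver samples of mixed sex. Male livers at 2 weeks and 7 weeks, 3 of each, share the fit and are used only where they show what sets 3 weeks apart. No allele, drug or transgene is named for any group, and whether each fetal sample came from 1 embryo or from several pooled is not given. Age and sex cannot be told apart between them. Total RNA was hybridised to barcoded probes that the nanoString nCounter instrument counts one molecule at a time, without amplification.

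At e15.5 the liver is the main blood-forming organ of the fetus, and hepatocyte precursors share it with red cell and myeloid precursors. Around weaning blood formation has moved to the bone marrow, and hepatocytes begin to divide their nuclei without dividing the cell, which gives binucleate and then polyploid cells; the study is titled for the part of miR-122 in that step. A miRNA guides Argonaute to messenger RNAs that pair with its seed, bases 2 to 8 from its 5′ end, so miRNAs with the same seed can share targets. In whole-liver RNA, fewer cells of a type and less RNA per cell cannot be told apart.

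The sequences below are the mature forms on which the differences turned, shown for 2 reasons: let-7, miR-148, miR-29, miR-130, miR-15 and miR-20 members share a seed within their family and moved by different amounts, and miR-144, miR-451, miR-376a, miR-376b and miR-154 moved differently from a neighbour in their cluster. They come from RefSeq (assembly GRCm38.p6), read 5′ to 3′, and capitals mark the seed. Of 361 miRNA names on the probes, 231 matched a RefSeq mature sequence, 109 of them exactly and the rest through names without an arm.
let-7c: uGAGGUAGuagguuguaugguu
let-7b: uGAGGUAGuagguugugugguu
let-7a: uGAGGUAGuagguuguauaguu
let-7i: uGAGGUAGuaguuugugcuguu
miR-148a: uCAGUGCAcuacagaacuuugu
miR-148b: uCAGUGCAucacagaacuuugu
miR-152: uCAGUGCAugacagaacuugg
miR-29a: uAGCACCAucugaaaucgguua
miR-29b: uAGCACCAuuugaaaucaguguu
miR-29c: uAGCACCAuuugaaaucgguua
miR-130a: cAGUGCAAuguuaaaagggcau
miR-130b: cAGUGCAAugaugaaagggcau
miR-301a: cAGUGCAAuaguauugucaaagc
miR-15a: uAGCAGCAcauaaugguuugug
miR-16: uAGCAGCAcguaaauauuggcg
miR-20a: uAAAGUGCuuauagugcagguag
miR-93: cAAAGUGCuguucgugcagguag
miR-106b: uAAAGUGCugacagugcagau
miR-144: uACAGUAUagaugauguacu
miR-451: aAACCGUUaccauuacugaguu
miR-376a: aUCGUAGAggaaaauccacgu
miR-376b: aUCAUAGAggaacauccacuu
miR-154: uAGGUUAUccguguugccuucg

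Signal is given in linear units, 2 to the power of the deposited log2 value. Values at or below background all stand at 1 floor of 0.001 units, called the floor here. Summed over the 355 probes, the signal was 490045, 478381 and 539127 units in the 3-week livers, against 172057, 164042 and 148505 units in the e15.5 livers. The 100 brightest probes together stood 1.39 log2 units higher at 3 weeks. Whether that is more miRNA per unit of RNA or a matter of loading and scaling was not tested, so differences are given as deposited, and the text says where a call changed once each liver was centred on its 100 brightest probes, which takes 1.39 from every log2 difference. Across the 114 probes above the floor in all 12 livers, Pearson's r between livers was 0.989 to 0.990 among the 3-week livers, 0.962 to 0.980 among the e15.5 livers and 0.636 to 0.688 between the ages, as a description over probes, which are not independent. Probes above the floor numbered 159, 168 and 167 in the 3-week livers, against 212 to 311 in the e15.5 livers, where mouse 1 stood apart with the lowest number. These counts did not overlap, and the exact two-sided permutation test gave p = 0.1, the smallest that 3 livers against 3 allow.

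Most probes differed between the ages. In limma's test, with p adjusted over all 355 probes and a threshold of 0.05, 207 probes (58.3%) were called, of which 91 (25.6%) were higher and 116 (32.7%) lower at 3 weeks. After centring, 241 (67.9%) were called, 64 (18%) higher and 177 (49.9%) lower, so the balance of rising and falling probes depends on how livers are scaled to each other. With quantile normalisation 87 (24.5%) were higher and 81 (22.8%) lower. Adding 10 units before the logarithm, which damps values near the floor, gave 93 (26.2%) higher and 131 (36.9%) lower. Of the probes above the floor in all 6 livers, 74 were higher, 33 lower and 27 not called. Among the 74 that were higher, 48 stayed higher after centring, 18 lost the call and 8 were called lower. All 33 that were lower stayed lower, which was favoured because centring lowers every difference. A further 55 called probes were at the floor in every 3-week liver, with means at e15.5 of 8.21 to 561 units and a median of 32.2. For 31 of them the e15.5 mean exceeded 30 units. The opposite pattern, at the floor in every e15.5 liver and above it at 3 weeks, held for 6 probes: miR-802, miR-342-3p, miR-101a, miR-193, miR-195 and miR-296-3p. No fold is given for probes at the floor in 1 group, and their adjusted p-values do not measure precision. Without e15.5 mouse 1, 156 probes in place of 116 were called lower.

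**Figure D1:**
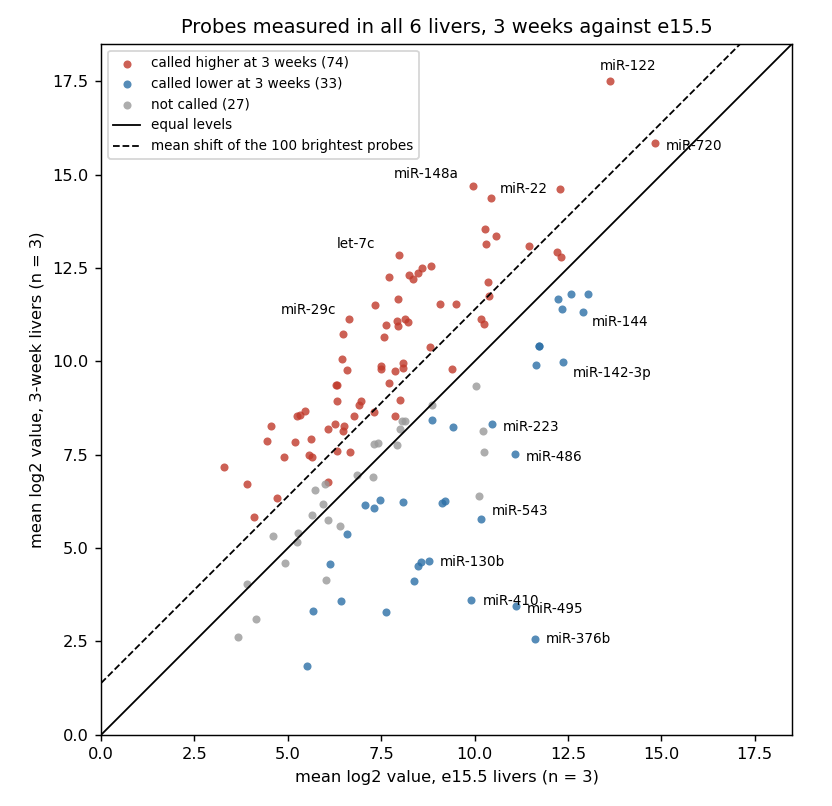
Mean log2 value of each probe in the 3-week livers (vertical axis) against the e15.5 livers (horizontal axis), for the probes above the floor in all 6 livers. Colours mark the 74 probes called higher, the 33 called lower and the rest; the solid line is equality and the dashed line lies 1.39 log2 units above it, the mean shift of the 100 brightest probes.

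miR-122, the dominant miRNA of hepatocytes, was the brightest probe at 3 weeks and the second brightest, after miR-720, at e15.5. Its signal was 172807, 184543 and 202590 units in the 3-week livers, against 16345, 11602 and 10923 units in the e15.5 livers. The groups were far apart, and mouse 1 was the highest of the e15.5 livers. The log2 difference was 3.87 ± 0.19 (SE), a 14.6-fold higher level with an adjusted p of 2.98e-08, and 5.59-fold after centring. As a share of each liver's summed signal, which does not depend on scaling between livers, it held 35.3%, 38.6% and 37.6% at 3 weeks, against 9.50%, 7.07% and 7.36% at e15.5. Probes differ in how well they hybridise, so shares and ranks are of signal and not of molecules.

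The other members of the adult hepatocyte list all rose. All 11 of the 11 probes were called higher, and 10 of them also after centring, the exception being miR-193b (log2 difference after centring 0.37). Of all probes 25.6% were called higher, and 18% after centring. Over members above the floor in all 6 livers the median log2 difference was 3.79, beside 0.94 for all such probes. With 10 units added to every value it was 3.66 over the whole list, beside -0.43 for all 355 probes. Leaving out miR-122, the list held 12.1%, 12.3% and 11.4% of the signal in the 3-week livers, against 2.01%, 2.04% and 2.25% in the e15.5 livers.

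miR-148a, abundant in adult hepatocytes, had 26423, 28079 and 25640 units in the 3-week livers, against 1280, 936 and 843 units in the e15.5 livers. Every 3-week liver was above every e15.5 liver, and the probe ranked 3 by mean signal at 3 weeks and 33 at e15.5. Its log2 difference of 4.73 ± 0.16 (SE, adjusted p = 2.33e-09) was 26.6-fold. miR-148b and miR-152 carry the same seed and also rose, with log2 differences of 1.35 ± 0.17 and 1.88 ± 0.16. After centring miR-148b turned to -0.04 and was not called. miR-22, which is expressed in many cell types and bright in liver, had 21225, 19914 and 22383 units at 3 weeks, against 1442, 1328 and 1368 units at e15.5. Its log2 difference was 3.94 ± 0.13.

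miR-192 and miR-194, known from liver and gut epithelium and neighbours at chr19:6264658-6264932, rose together. miR-194 had 5246, 5432 and 6661 units in the 3-week livers, against 360.9, 366.5 and 430.9 units in the e15.5 livers, and its log2 difference was 3.90 ± 0.16. For miR-192 the log2 difference was 3.71 ± 0.18. Their ratio within each liver, miR-194 over miR-192 on the log2 scale, was 0.83 ± 0.08 at 3 weeks and 0.64 ± 0.19 at e15.5 (SD, n = 3 each), and the groups overlapped. miR-802, known from liver and pancreas, had 507, 470.9 and 461 units at 3 weeks and lay at the floor in each e15.5 liver. miR-21, which rises in growing and injured liver, is outside that list and was also higher, with 4926, 4365 and 6122 units at 3 weeks, against 301.5, 228 and 401 units at e15.5.

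**Figure D2:**
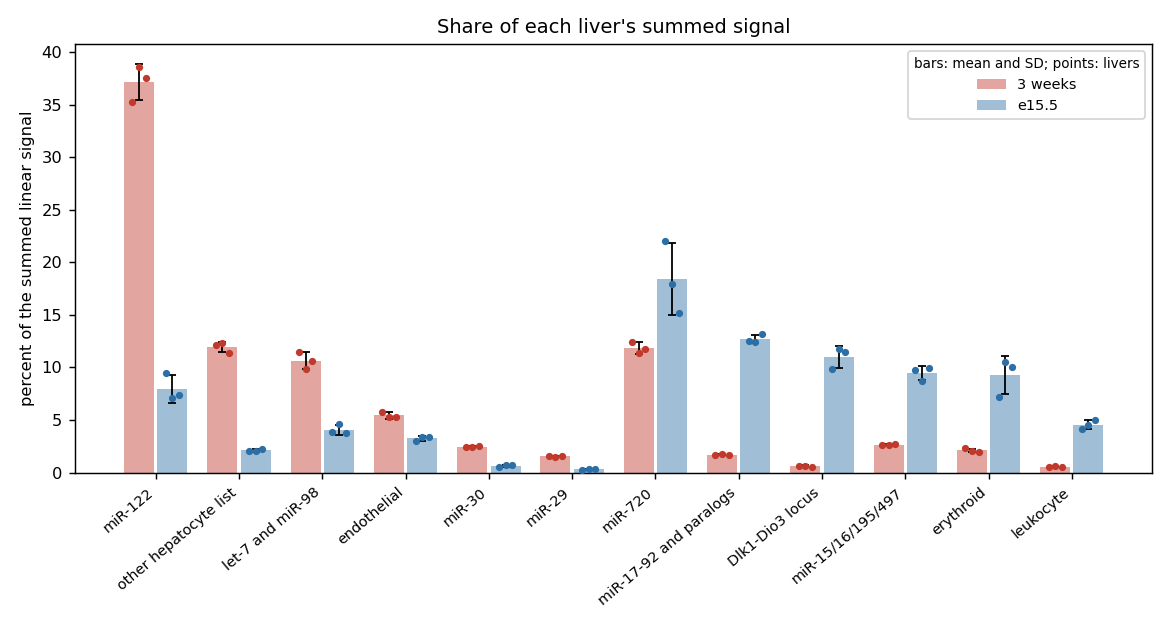
Percent of each liver's summed linear signal taken by miR-122, the other hepatocyte probes and further lists, with bars for the mean, whiskers for the SD and points for the 3 livers of each age. Hepatocyte, let-7, endothelial, miR-30 and miR-29 shares stood higher at 3 weeks; those of miR-720, miR-17-92, Dlk1-Dio3, miR-15/16, erythroid and leukocyte probes stood lower.

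In all, 32 shares of signal were compared, and for 28 the groups did not overlap. Each of the 28 reached the exact test's smallest p of 0.1, or 0.114 after Benjamini-Hochberg adjustment over the 32. No share can therefore pass 0.05 in this design. Some lists share probes, and all shares are parts of 1 total per liver, so the 28 are not separate results. Among the 355 single probes, 94 (26.5%) were higher and 102 (28.7%) lower at 3 weeks without overlap. The 10 brightest probes of each age held 73.1% ± 0.7 of the signal at 3 weeks and 56.2% ± 2.7 at e15.5 (SD, n = 3 each). Both sets held miR-122, miR-126-3p and miR-720, an entry since withdrawn as a transfer RNA fragment. miR-720 alone took 11.9% ± 0.6 at 3 weeks and 18.4% ± 3.4 at e15.5. As deposited it was called higher at 3 weeks (log2 difference 1.02 ± 0.18), and after centring it stood at -0.37 and was not called.

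The let-7 family, which limits growth genes and accumulates as cells differentiate, rose as a whole but very unevenly. All 9 of 9 probes, miR-98 included, were called higher as deposited, beside 25.6% of all probes, with a median log2 difference of 3.22. let-7c had 8543, 6162 and 7671 units in the 3-week livers, against 204, 427 and 179 units in the e15.5 livers. That is a log2 difference of 4.89 ± 0.29 (adjusted p = 1.84e-07), the largest rise among probes above the floor in all 6 livers. let-7b was close to it at 4.56 ± 0.14. let-7a, let-7d, let-7f, let-7g and miR-98 lay between 2.80 and 3.89. The smallest rise was that of let-7i, with 2276, 2185 and 2316 units at 3 weeks, against 1183, 1232 and 1048 units at e15.5. After centring let-7i was called lower (-0.41), let-7e was not called (0.19) and the other 7 stayed higher.

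The change within the family does not depend on scaling. let-7i over let-7c, on the log2 scale within each liver, was -1.91, -1.50 and -1.73 at 3 weeks, against 2.53, 1.53 and 2.55 at e15.5. The sign was opposite in the 2 groups: let-7i gave the higher signal in every e15.5 liver and let-7c in every 3-week liver. Their seeds are identical, as the sequences above show. let-7c also moved away from miR-99a, its neighbour at chr16:77598936-77599693 (GRCm38.p6), by 3.04 log2 units relative to e15.5. let-7c is also made from a second locus on chromosome 15 beside let-7b, and the probe reads both. let-7a, let-7b and let-7c are nearly alike in sequence, and whether each probe also binds the others was not tested. Over the whole family the share of signal was 10.6% ± 0.8 at 3 weeks and 4.07% ± 0.46 at e15.5.

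Within the miR-99/100 and miR-125 list, 4 of 6 probes were higher and none lower, beside 25.6% and 32.7% of all probes. miR-100 had 309, 293.7 and 321.8 units in the 3-week livers and lay at 0.57 units or the floor in the e15.5 livers. miR-99a and miR-125b-5p rose by 1.85 ± 0.12 and 2.02 ± 0.27. miR-125a-5p was called higher as deposited (0.75 ± 0.20) and lower after centring (-0.64). miR-99b was not called as deposited, at 0.47 with an adjusted p of 0.0844, and was called lower after centring.

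miR-29 and miR-30 members rose together, also after centring. miR-29, whose targets include collagen messages, had 3 of 3 probes higher, and miR-30, linked to epithelial differentiation, had 5 of 5. Of all probes 25.6% were higher. miR-29c had 2217, 2224 and 2302 units in the 3-week livers, against 84.0, 109 and 109 units in the e15.5 livers. The 3-week livers were nearly equal to one another, and the log2 difference was 4.49 ± 0.11 (adjusted p = 3.27e-10). miR-29a rose by 3.85 ± 0.10 and miR-29b by 3.10 ± 0.21. miR-29b and miR-29c lie in 1 cluster at chr1:195037091-195037634, yet miR-29c over miR-29b within a liver stood 1.39 log2 units higher at 3 weeks, with no overlap. miR-29b has a further copy beside miR-29a on chromosome 6. The miR-30 probes rose by 2.99 (miR-30b) to 4.16 (miR-30a).

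miR-23, miR-27, miR-24 and miR-26 members were higher in 5 of 5 and 2 of 2 probes, beside 25.6% of all probes. miR-23b had 1733, 1590 and 1791 units at 3 weeks, against 89.1, 86.8 and 91.5 units at e15.5, a log2 difference of 4.26 ± 0.09. Its counterpart of the other cluster, miR-23a, rose by 2.38 ± 0.11. The same split appeared for miR-27b (3.90 ± 0.44) and miR-27a (2.45 ± 0.09). After centring, miR-24 and miR-26a were not called.

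**Figure D3:**
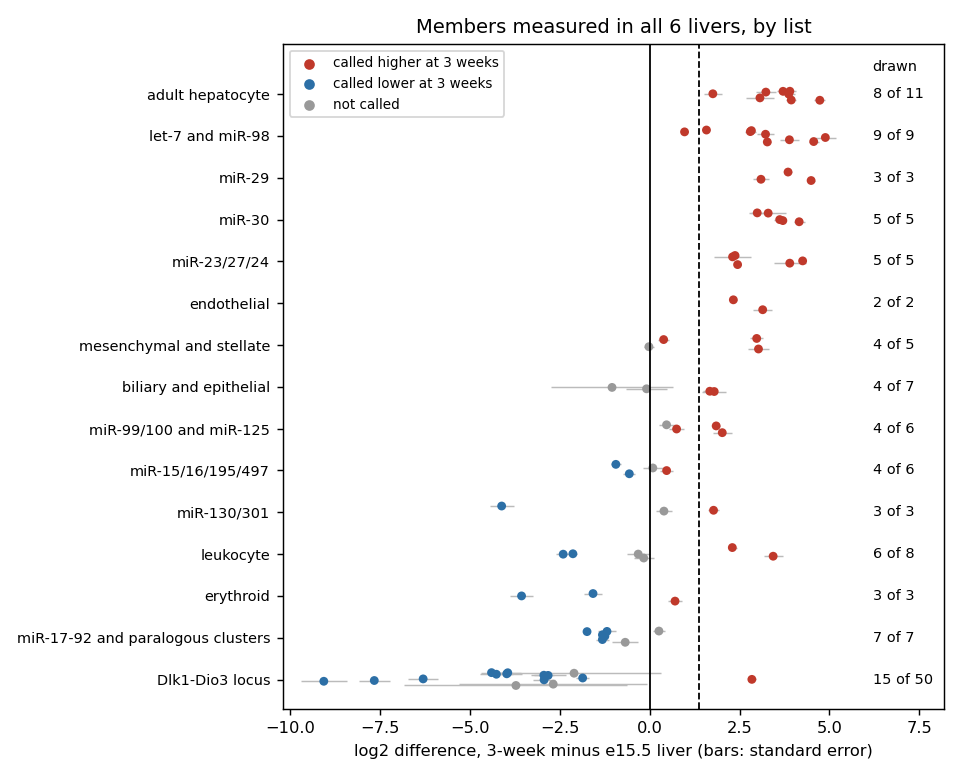
Log2 difference, 3-week minus e15.5 liver, of list members above the floor in all 6 livers, with the standard error as a bar; figures on the right give how many of each list are drawn. Hepatocyte, let-7, miR-29 and miR-30 members lie above 0, with all but 1 of them to the right of the dashed shift of 1.39, while most Dlk1-Dio3 members lie far to the left.

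Erythroid miRNAs did not move as 1 group. Of 3 probes, miR-144 and miR-486 fell and miR-451 was called higher as deposited; after centring all 3 were lower. miR-144 had 2698, 2429 and 2614 units in the 3-week livers, against 5420, 9583 and 8706 units in the e15.5 livers. The groups did not overlap, and e15.5 mouse 1 was lower than the other two. Its log2 difference was -1.57 ± 0.26 (adjusted p = 0.000493). miR-486 had 204.9, 176 and 173 units at 3 weeks, against 2200, 2549 and 1835 units at e15.5, and fell by 3.56 (log2). miR-451 had 8372, 7037 and 7969 units at 3 weeks, against 4790, 5122 and 4399 units at e15.5. Its call (0.71 ± 0.20, adjusted p = 0.0121) turned to -0.68 after centring and was lost as deposited without e15.5 mouse 3 (adjusted p = 0.0537).

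miR-144 and miR-451 are cut from 1 transcript, at chr11:78073005-78073241, the second by Argonaute 2 without Dicer. miR-451 over miR-144 on the log2 scale within a liver was 1.63, 1.53 and 1.61 at 3 weeks, against -0.18, -0.90 and -0.98 at e15.5. The ratio was thus positive in each 3-week liver and negative in each e15.5 liver, a difference of 2.28. Of 25 such ratios between neighbours, arms or family members, 20 separated the groups, each at the smallest exact p of 0.1 and 0.125 after adjustment over the 25. The 5 that overlapped were miR-194 over miR-192, miR-143 over miR-145, miR-191 over miR-425, miR-429 over miR-200b and miR-23a over miR-24. The pairs were chosen after their values were seen, so the count of 20 does not show how common such separation is. As a share of signal the erythroid probes together took 2.10% ± 0.17 at 3 weeks and 9.26% ± 1.79 at e15.5. Their summed signal fell by less, with 11275, 9643 and 10756 units at 3 weeks, against 12411, 17254 and 14939 units at e15.5.

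Leukocyte miRNAs moved in both directions, 3 of 8 higher, 3 lower and 2 not called, beside 25.6% higher and 32.7% lower over all probes. After centring 3 were higher and 5 lower. miR-142-3p, found in nearly all blood cells, had 952, 1010 and 1066 units in the 3-week livers, against 5141, 5317 and 5564 units in the e15.5 livers. The log2 difference was -2.40 ± 0.20 (adjusted p = 1.98e-06). miR-223, a miRNA of myeloid cells, had 327, 324 and 316 units at 3 weeks, against 1477, 1500 and 1278 units at e15.5, and fell by 2.13. In the other direction, miR-150, a miRNA of mature lymphocytes, had 230, 219.3 and 254 units at 3 weeks, against 15.7, 21.4 and 29.97 units at e15.5. Its log2 difference was 3.44 ± 0.26. miR-146a rose by 2.30 ± 0.13, and miR-342-3p had 94.3, 127.2 and 170 units at 3 weeks and lay at the floor in each e15.5 liver. The risers kept their calls after centring. The fallers did too, but centring lowers every difference, so it is no test of them. The part that blood left in the vessels plays in these values was not tested.

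The arms of the miR-142 hairpin moved apart. miR-142-5p was not called as deposited (-0.32, adjusted p = 0.38) and was lower after centring. On the log2 scale miR-142-5p over miR-142-3p was -4.62, -3.80 and -4.27 at 3 weeks, against -5.98, -6.66 and -6.31 at e15.5. A similar gap appeared for miR-423-5p over miR-423-3p, 2.15 ± 0.76 at 3 weeks and -0.13 ± 0.84 at e15.5 (SD, n = 3 each), with no overlap but a wide spread.

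The miR-17-92 cluster and its paralogs, miRNAs of proliferating cells, fell. Of 7 probes 5 were lower and none higher as deposited, and all 7 were lower after centring. Of all probes 32.7% were lower, and 49.9% after centring. The median log2 difference of the 7 was -1.24. The shared probe for miR-20a and miR-20b had 3665, 3550 and 3443 units in the 3-week livers, against 8412, 9133 and 7754 units in the e15.5 livers, where it ranked 3. The log2 difference was -1.24 ± 0.09 (adjusted p = 7.31e-07). miR-19a had 985, 942 and 939 units at 3 weeks, against 3194, 3227 and 3157 units at e15.5, and fell by 1.74. The 7 probes held 1.70% ± 0.07 of the signal at 3 weeks and 12.7% ± 0.4 at e15.5. The probes not called as deposited were miR-19b (-0.68) and miR-106b (0.26).

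Within the miR-106b cluster at chr5:138165321-138165807 the members moved unequally. miR-106b had 302.2, 359 and 351 units in the 3-week livers, against 314, 284 and 249 units in the e15.5 livers, which overlap. miR-25 had 1362, 1240 and 1514 units at 3 weeks, against 3503, 3384 and 3301 units at e15.5, and fell by 1.31. miR-106b over miR-25 within a liver accordingly stood 1.57 log2 units higher at 3 weeks, and miR-106b over miR-93 stood 1.44 higher, both with no overlap. miR-106b and miR-93 have the same seed.

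miR-15 and miR-16, which target cyclin messages, split in the same way. miR-15a and miR-15b fell by 0.57 and 0.94 on the log2 scale. miR-16 had 6495, 6913 and 8027 units at 3 weeks, against 6030, 4489 and 4981 units at e15.5, with the groups close to each other. Its rise (0.47 ± 0.18, adjusted p = 0.0477) was lost when any 1 of 9 livers was removed (highest adjusted p 0.163), and it was called lower after centring (-0.91). miR-16 over miR-15a within a liver was 1.13 ± 0.12 at 3 weeks and 0.09 ± 0.10 at e15.5 (SD, n = 3 each). miR-16 is read from a cluster with miR-15a on chromosome 14 and from another with miR-15b on chromosome 3. miR-195, which has that seed too, had 66.1, 57.7 and 47.9 units at 3 weeks and lay at the floor in each e15.5 liver.

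Opposite calls within 1 seed were seen in 3 of the 15 seed groups that had at least 2 probes above the floor in all 6 livers. Besides miR-15 and miR-16, these were the miR-25 group, where miR-32 rose by 0.91 as deposited and lost its call after centring (-0.48), and the miR-130 group. miR-130a had 3970, 4523 and 5076 units in the 3-week livers, against 1501, 1134 and 1327 units in the e15.5 livers. miR-130b had 26.9, 26.4 and 22.5 units at 3 weeks, against 386, 510 and 421 units at e15.5. No liver of either group overlapped with the other for either probe. miR-130a rose by 1.78 ± 0.16 and by 0.39 after centring, while miR-130b fell by 4.12 and by 5.50 after centring. miR-301a, with the same seed, was not called as deposited (0.40, adjusted p = 0.147) and was lower after centring (-0.99).

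**Figure D4:**
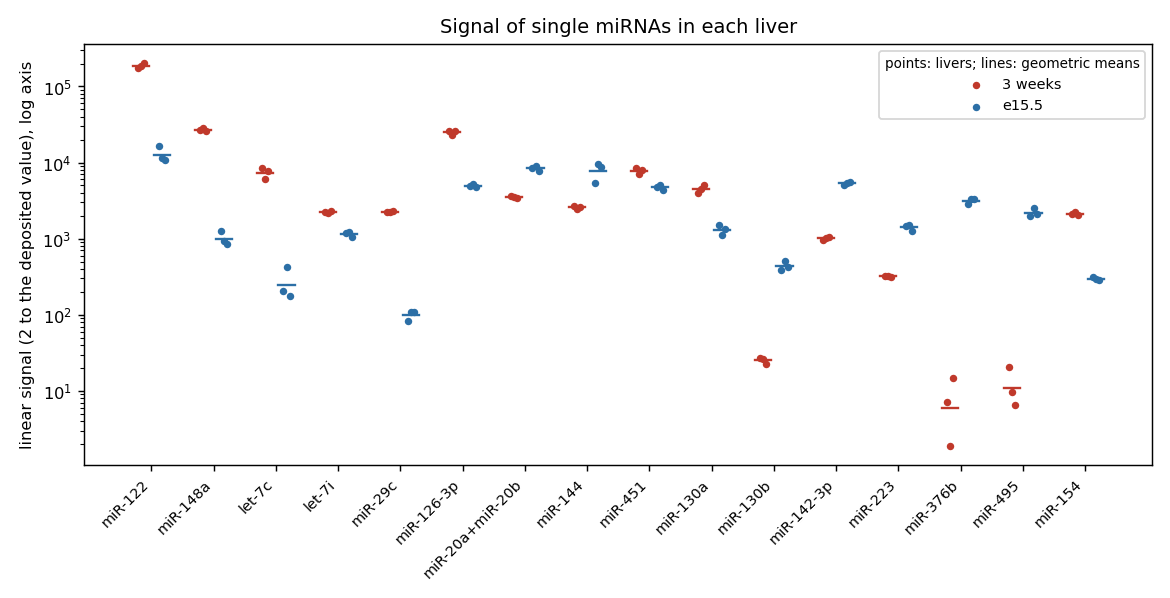
Linear signal on a log axis of single miRNAs in each 3-week liver (left of each pair) and each e15.5 liver (right), with the geometric mean as a line. miR-130a and miR-130b, which share a seed, moved in opposite directions, and miR-154 is above its e15.5 level while miR-376b and miR-495 are far below theirs.

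Markers of the other cells in the liver moved in differing ways. miR-126-3p, made in endothelial cells, had 25772, 23195 and 26279 units in the 3-week livers, against 4926, 5191 and 4845 units in the e15.5 livers. Its log2 difference was 2.33 ± 0.10, and both arms of miR-126 stayed higher after centring. miR-143 and miR-145, of smooth muscle and other contractile cells, rose by 3.03 ± 0.29 and 2.98 ± 0.18. miR-199a-3p and miR-199a-5p, miRNAs of mesenchymal cells, were near their e15.5 level as deposited. miR-199a-3p gave 0.39 ± 0.15, a call lost when any 1 of 8 livers was removed, and miR-199a-5p gave -0.02 ± 0.15. Both were called lower after centring. miR-214, made with a copy of miR-199a, lay at the floor in each 3-week liver and had 33.4, 53.6 and 63.8 units at e15.5.

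miR-200b and miR-429, epithelial miRNAs found in bile ducts, rose by 1.67 ± 0.19 and 1.80 ± 0.33 and lost their calls after centring. Their neighbour miR-200a had 257, 223.2 and 353 units at 3 weeks, against the floor in e15.5 mice 1 and 2 and 16.6 units in mouse 3. Of the 7 biliary and epithelial probes, 3 were higher and none lower as deposited, while 1 was higher and 2 lower after centring. Over all probes 25.6% were higher and 32.7% lower as deposited, and 18% and 49.9% after centring. The 2 lower biliary and epithelial probes were miR-200c and miR-31, and miR-200c averaged 17.9 units at 3 weeks and 54.4 units at e15.5. With 10 units added miR-200c was lower as well (-1.62, adjusted p = 0.0383). Probes of other tissues were dim throughout. None of the muscle, pancreas, neural and pluripotent cell probes exceeded 63.8 units in any of the 6 livers, and 4 of the 5 lower calls among them were of probes whose e15.5 mean was at most 9.98 units.

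The miRNAs of the imprinted Dlk1-Dio3 locus made up the largest group that fell. The locus carries many miRNAs on its maternal allele, transcribed with Meg3, an antisense transcript of Rtl1, Rian and Mirg, and is active in fetal tissues. Of its 50 probes 32 were lower and 1 higher, beside 32.7% and 25.6% of all probes. After centring 38 were lower, beside 49.9% of all probes. With e15.5 mouse 1 left out 38 were lower as deposited, beside 156 of all 355 probes. Between 8 and 11 of the 50 exceeded 30 units in a 3-week liver, against 30 or 31 in an e15.5 liver. Of the 30 with an e15.5 mean above 30 units, 29 had a lower mean at 3 weeks and 26 were called lower. These 30 were picked by their e15.5 signal, which favours lower means at 3 weeks. The locus took 0.632%, 0.663% and 0.570% of the signal in the 3-week livers, against 9.81%, 11.8% and 11.5% in the e15.5 livers.

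Along the locus the signal was uneven. The 7 probes before Rtl1, the miRNAs nearest to Dlk1, were dim at e15.5, with means of up to 19.1 units, and 2 were called lower. Of the 7 anti-Rtl1 probes 5 were called lower. miR-431, miR-433 and miR-127 had e15.5 means of 478, 507 and 471.4 units and lay at the floor in each 3-week liver. miR-434-3p, the other arm of a hairpin whose 5p probe reached the floor at 3 weeks, had 74.7, 52.8 and 100.6 units at 3 weeks, against 532, 623 and 536 units at e15.5. Of the 36 probes of Rian and Mirg 25 were lower and 1 higher.

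miR-376b fell the most of all probes above the floor in all 6 livers. It had 7.25, 1.90 and 14.95 units in the 3-week livers, against 2897, 3289 and 3298 units in the e15.5 livers, where it ranked 15. The 3-week values are a few units above the floor, so the fold of 534 (log2 difference -9.06 ± 0.64, adjusted p = 5.9e-07) rests on near-background signal. All 7-week livers that share this fit lay at the floor for miR-376b and so had no spread. limma's fit of the 6 livers alone gave an adjusted p of 0.000482. miR-376a, at chr12:109723824-109723844 and close to miR-376b at chr12:109723508-109723528, differs from it within the seed. Its mean was 75.2 units at 3 weeks and 272 units at e15.5, and it fell by only 1.86. miR-495 had 20.6, 9.73 and 6.48 units at 3 weeks, against 1969, 2565 and 2118 units at e15.5, and fell by 7.66. miR-410, near the far end of the cluster, had 7.25, 13.65 and 18.72 units at 3 weeks, against 832, 1285 and 845 units at e15.5, and fell by 6.30. miR-300 lay at the floor in each 3-week liver and had 557, 638 and 489 units at e15.5.

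A single member was called higher. miR-154, at chr12:109738438-109738459, had 2131, 2251 and 2051 units in the 3-week livers, against 313, 298.1 and 285 units in the e15.5 livers. The rise of 2.84 ± 0.11 (adjusted p = 6.21e-09) was 7.18-fold, and 2.75-fold after centring. The probes on either side of it, miR-485 and miR-496, were near or at the floor at both ages and not called. The nearest called probes, miR-134 and miR-541, were lower. Without miR-154 the locus held 0.190% to 0.197% of the signal at 3 weeks and 9.63% to 11.6% at e15.5. Whether its probe also binds another RNA was not tested.

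Another 3 members had far lower values at 3 weeks without being called. miR-136 had 321.8, 272 and 249 units in the 3-week livers, against 1162, 1273 and 1166 units in the e15.5 livers. miR-377 had 174, 190 and 213 units at 3 weeks, against 1238, 1167 and 1284 units at e15.5, and miR-369-3p showed the same pattern. In the fit over 12 livers their adjusted p-values were 0.455, 0.376 and 0.312. Some of the 7-week livers that share this fit lay at the floor, where the SD at 7 weeks was 6.50, 7.03 and 8.32 log2 units. A fit of the 6 livers alone gave 6.94e-05, 1.43e-05 and 7.95e-05. That fit called 80 probes (22.5%) higher and 91 (25.6%) lower in all.

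**Figure D5:**
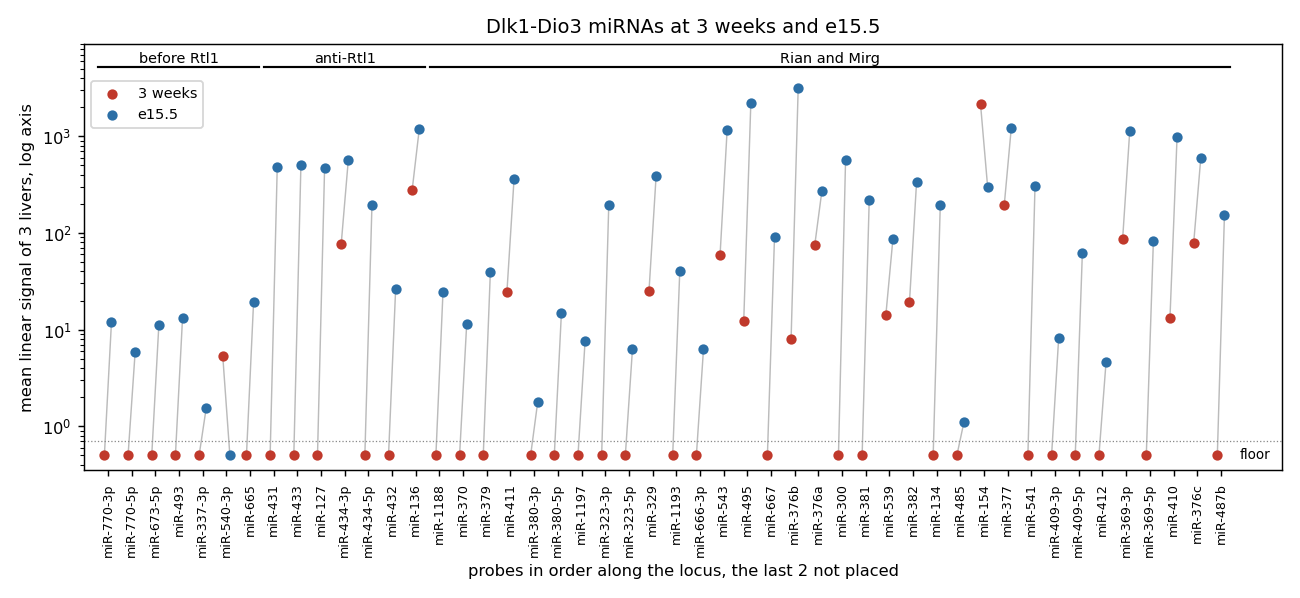
Mean linear signal on a log axis of Dlk1-Dio3 probes in the 3-week livers (left of each pair) and the e15.5 livers (right), in order along the locus, with means at the floor drawn below the dotted line. Nearly all probes lie lower at 3 weeks; miR-154 and the dim miR-540-3p lie higher, and 2 probes at the floor in all 6 livers are left out.

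Of the 7 probes of other imprinted genes, 1 was higher (miR-296-3p, named above), 2 were lower and 4 were not called, among them the brighter miR-335-5p. Over all probes 25.6% were higher and 32.7% lower, so neither count exceeds the share of all probes. miR-483, from an intron of Igf2, and miR-675-5p, from H19, lay at the floor in each 3-week liver and had e15.5 values of 8.16 to 43.3 units and 6.89 to 43.6 units. Both were lowest in e15.5 mouse 1. The opposite arm miR-675-3p was not called (0.15, adjusted p = 0.906). Of the 17 probes from the intron cluster of Sfmbt2, 5 were lower and none higher, close to the 32.7% of all probes that were lower, and none averaged above 85.8 units at e15.5.

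Between 3 weeks and 2 weeks far fewer probes differed, and the Dlk1-Dio3 locus made up a large part of them. At 3 weeks 1 probe was higher than at 2 weeks (0.282%) and 55 were lower (15.5%), and after centring 9 were higher (2.54%) and 36 lower (10.1%). Of the lower ones, 19 of 55 and 19 of 36 belonged to Dlk1-Dio3, which has 50 of the 355 probes. Both comparisons share the 3-week livers, so their calls are not independent. miR-376b averaged 8.03 units at 3 weeks, against 278 units at 2 weeks, and its difference of -5.53 had an adjusted p of 0.000207. miR-495 and miR-410 both stood 4.22 lower on the log2 scale than at 2 weeks. The locus held 0.622% ± 0.047 of the signal at 3 weeks and 1.51% ± 0.09 at 2 weeks (SD, n = 3 each).

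miR-29c was the probe that was higher at 3 weeks than at 2 weeks (0.78, adjusted p = 0.000522), with 2248 ± 48 units at 3 weeks and 1311 ± 53 units at 2 weeks. miR-122 was not called between these ages and held 37.1% ± 1.7 of the signal at 3 weeks and 31.3% ± 3.6 at 2 weeks. Among probes that were higher at 3 weeks than at e15.5, miR-429 and miR-125a-5p stood below their 2-week level, with means of 178 and 2047 units at 3 weeks and 597 and 4745 units at 2 weeks. Their differences of -1.79 and -1.20 stayed called after centring.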

How the data were processed

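Total RNA was measured on the nanoString mouse miRNA panel. The deposited table holds log2 values for each probe and liver, exported with Partek 6.6 per the submitters' processing notes. The authors' background subtraction and scaling are not given in the sources used here. Within each liver all values under 300 units lay on whole multiples of 1 step (tolerance 0.02 of a step), but the offset removed is unknown, so counts were not recovered and no count test was run. Summed signal per liver is given as depth, and with unknown counts no counting interval is possible.

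Differences were tested with limma 3.58.1 (R 4.3.3), 1 mean per age over 12 livers, moderated variances with a trend, two-sided, Benjamini-Hochberg over 355 probes. The script was tested on simulated data. Shares and ratios within a liver used the exact two-sided permutation test. The labels do not say which livers share a litter, and p-values measure the spread between these samples. Alternatives were centring, quantile normalisation, other pseudocounts, filters, the 6 livers alone, untrended variances, a replicate block and each liver left out.

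Besides miR-122, the probes named were in part those called against e15.5. These were the 12 most raised and 12 most lowered that were measured in every liver of both ages without overlap. The 6 brightest in each direction with 1 age at the floor were added, and in longer lists the 4 largest called changes. Whether called against e15.5 or not, the 10 brightest of each age, all members of lists of up to 6 probes and the 8 largest called changes against 2 weeks were named. This rule gave 115 probes, and not all are described in the text. Among those left out are miR-1944, the shared probe for miR-1937a and miR-1937b, miR-1983 and miR-1198. Members and lists were chosen with earlier results of these data known. let-7e, let-7i, miR-19b, miR-31, miR-32, miR-93, miR-98, miR-106b, miR-136, miR-142-5p, miR-154, miR-193b, miR-200a, miR-200c, miR-203, miR-335-5p, miR-369-3p, miR-376a, miR-377, miR-483, miR-675-5p, miR-709, the miR-191, miR-423 and miR-425 probes and the ratios were singled out after their values were seen.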

Additional observations from a re-analysis of the deposited data

Results flagged for a closer look

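The difference between 3 weeks and e15.5 was set against that between 2 weeks and e15.5. Both use the e15.5 livers, so the test of the difference is the direct contrast of 3-week with 2-week livers in limma's fit, adjusted over 355 probes. Of the 115 named probes, 32 that were above the floor in all 3-week and 2-week livers passed the threshold, 31 of them lower at 3 weeks; over all probes 15.8% passed, 1 higher and 55 lower. For 8 of the 32 this was fixed by selection, since they were named for their change in this contrast. A further 7 named probes passed with a floor value in 1 liver or more and are not listed. The values are log2, 3 weeks minus 2 weeks.

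Among Dlk1-Dio3 miRNAs the differences were -5.53 for miR-376b, -4.22 for miR-495, -4.22 for miR-410, -3.39 for miR-411, -3.17 for miR-382, -2.91 for miR-539, -2.82 for miR-329, -2.70 for miR-376c and -2.53 for miR-434-3p. miR-675-3p, from H19, gave -2.82. miR-29c gave 0.78.

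Of the biliary and epithelial probes 2 of 7 were lower, and of the mesenchymal probes 3 of 5, miR-214 at the floor among them. The values were -1.79 for miR-429, -1.25 for miR-200b, -0.92 for miR-199a-3p and -0.89 for miR-199a-5p, while miR-143 (-0.13), miR-145 (-0.37) and miR-200a (-0.64) were not called. miR-130b gave -1.47, miR-125a-5p -1.20, miR-99b -1.02, miR-181a -0.99 and miR-223 -0.90. All of those called stayed called after centring.

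The smaller differences were -0.66 for the miR-20a and miR-20b probe, -0.65 for let-7d, -0.61 for miR-99a, -0.57 for miR-27a, -0.57 for miR-152, -0.54 for miR-30a, -0.52 for miR-126-3p, -0.50 for let-7b, -0.50 for miR-26b, -0.50 for miR-25, -0.49 for miR-30c and -0.45 for miR-19a. None of these stayed called after centring, which moved the contrast by 0.36. Groups of 3 livers are too small for a test of single outlying livers.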

How the results depend on the processing

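The mouse numbers do not pair the livers: deviations of same-numbered livers correlated at -0.135, -0.214 and 0.145. With the replicate block 89 probes were higher and 118 lower against e15.5, and 1 higher and 49 lower against 2 weeks. Against e15.5, lower calls numbered 33 among probes above the floor in all 6 livers, 54 in the upper 50% by mean, 177 centred on the 100 brightest and 175 centred on the median. Leaving out a liver gave 84 to 94 higher and 86 to 156 lower. Against 2 weeks, higher calls numbered 2 with that filter, 6 with quantile normalisation, 9 with either centring, 2 with 1 or 10 units added, 11 scaled with 10 added and 2 without a variance trend. Lower calls there numbered 20 with quantile normalisation, 36 and 29 centred and 34 scaled. Leaving out a liver gave 1 to 3 higher and 49 to 59 lower.

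Without miR-122 in the denominator, the 3-week minus e15.5 share turned to 0.4339 points for miR-99/100 and miR-125, 0.2105 for the miR-130 seed group and 0.2907 for mesenchymal probes. The biliary share turned to -0.0104 without miR-720, a setting chosen after seeing the data, and lay between -0.0194 and 0.0276 with 1 liver left out.

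Among probes named by the stated rule, a setting turned the sign of 12 that were called before or after it. Of those singled out later, centring turned let-7i to -0.41, miR-32 to -0.48 and miR-106b to -1.13. In the order quantile, centred on the 100 brightest, centred on the median and scaled with 10 added, log2 differences were -1.31, -0.37, -0.33 and -0.37 for miR-720, -0.083, -0.68, -0.64 and -0.68 for miR-451, -0.54, -0.91, -0.87 and -0.91 for miR-16, -0.60, -0.64, -0.60 and -0.63 for miR-125a-5p, and -0.85, -0.997, -0.96 and -0.98 for miR-199a-3p. In the last 3 settings they were -0.92, -0.88 and -0.87 for miR-99b, -1.30, -1.26 and -1.21 for miR-322, -0.99, -0.95 and -0.94 for miR-301a, -0.41, -0.37 and -0.40 for miR-181a, and -1.26, -1.22 and -1.02 for miR-741. miR-148b gave -0.039 and -0.038 centred on the 100 brightest and scaled. Quantile normalisation turned miR-290-5p to 0.14. The cause was not tested.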

Other observations

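Some probes outside the groups above had large differences. miR-709 had 6.47 and 6.79 units in 3-week mice 1 and 2 and was at the floor in mouse 3, against 264.8, 318.2 and 378.6 units in the e15.5 livers. miR-203, known from skin epithelium, had 328.8, 238.9 and 333.1 units at 3 weeks, against the floor in e15.5 mouse 1 and 6.34 and 5.37 units in mice 2 and 3. Every 3-week liver was thus above every e15.5 liver for miR-203, and below for miR-709.

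miR-335-5p, from an intron of the imprinted gene Mest, was near its fetal level as deposited, with 336.7, 342.7 and 335.9 units at 3 weeks, against 348.2, 241.8 and 224.8 units at e15.5. It was not called as deposited and was called lower after centring. miR-34c, of the p53-responsive miR-34 family, had 325.7, 371.1 and 339.7 units at 3 weeks, against 493.6, 460.1 and 447.3 units at e15.5, a log2 difference of -0.44 in limma's fit. That call was lost when any 1 of 4 livers was removed (highest adjusted p 0.0869).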
